A study of Mus musculus with 2 samples.

Results

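Capillary endothelial cells of the mouse brain were described here in 2 droplet libraries, 1 from Shank3-/- mice given vehicle and 1 from Shank3-/- mice given fluconazole, an azole antifungal, in the drinking water for 2 weeks. Members were chosen by UMI counts of 20 genes. A cell barcode was a member when at least 4 of 7 pan-endothelial genes (Cldn5, Flt1, Pecam1, Ly6c1, Slco1a4, Adgrl4 and Mecom) had a unique molecular identifier (UMI, 1 counted RNA molecule), when the UMIs of Slc17a7, Cx3cr1, Mog and Kcnj8 (neuron, microglia, oligodendrocyte and pericyte genes) summed to at most 1, and when the arterial genes Bmx, Gkn3, Sema3g and Fbln2 and the venous genes Vwf, Lrg1, Il1r1, Ch25h and Slc38a5 each summed to at most 1. Of 27561 deposited barcodes, 24541 had at least 500 genes and at most 5% mitochondrial UMIs, and 3246 of these were members, 1735 in the vehicle library and 1511 in the fluconazole library. Barcodes with at least 2 arterial UMIs and at most 1 venous UMI are called arterial-like below (410 vehicle, 406 fluconazole), and the mirrored set is called venous-like (852 and 784).

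Both groups carry the same Shank3-/- genotype, and no wild-type library was compared. The labels name the tissue only as brain, and the series description narrows it to prefrontal cortex. Sex, age and the number of mice in a library are not stated in the sources used here. Because the sources differ on whether droplets held nuclei alone or cells as well, the term barcode is used. Shank3 itself gave 91.1 counts per 1000000 UMIs (CPM) in vehicle members and 94.98 in fluconazole members; tags at the 3′ end may lie outside the deleted part, so this level does not test the genotype. With 1 library per treatment there is no replicate check. No p-value is given, every interval is a 95% interval of counting error only, and treatment cannot be told apart from any other difference between the 2 libraries.

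Brain capillaries are the thinnest vessels of the blood-brain barrier, a wall of endothelial cells sealed by tight junctions that admits glucose, amino acids, iron and lipids through dedicated transporters and returns many drugs to the blood through efflux pumps. Endothelial transcription changes gradually from artery through capillary to vein. The cells also respond to blood-borne signals, among them glucocorticoid hormones, which act through a nuclear receptor that binds DNA near its target genes.

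The members made up 12.9% of the kept vehicle barcodes (exact Clopper-Pearson interval 12.3 to 13.5) and 13.6% of the kept fluconazole barcodes (13.01 to 14.3), a ratio of 1.06 with a counting interval of 0.988 to 1.13. Of all barcodes that passed the endothelial and other-cell gates, capillary members were 55.0% (53.2 to 56.7) with vehicle and 52.1% (50.2 to 53.9) with fluconazole, a ratio of 0.947 (0.884 to 1.02). Both intervals of the ratio hold 1. The members carried 5599704 and 5169737 UMIs. Their median depth was 2521 and 2797 UMIs per barcode, below the 3552 and 3893 of arterial-like and the 4071.5 and 4139.5 of venous-like barcodes; a ceiling of 1 UMI on 3 sets of genes keeps shallow barcodes more readily than deep ones. The libraries shared 45 deposited barcode sequences, of which 1 was a member in both.

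The label was checked with 4 genes that the rule did not use. Car4, a carbonic anhydrase on the capillary surface, stood at 679 CPM in vehicle and 707 CPM in fluconazole members. It was 105 and 82.1 CPM in arterial-like barcodes and 12.5 and 10.6 CPM in microglia-like barcodes, a cell type that should lack it (at least 3 of 5 microglial genes with a UMI and at most 1 pan-endothelial gene). The capillary level was thus well above the arterial and microglial levels in both libraries. After thinning every barcode to 1500 UMIs, the share of members with a Car4 UMI was 53.6% with vehicle and 54.5% with fluconazole, against 1.56% and 1.58% of microglia-like barcodes. Without thinning the shares were 64.0% and 67.9% of members against 5.62% and 5.70% of microglia-like barcodes, whose median depths were 4599 and 5969 UMIs.

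The other 3 label genes gave the same order of capillary above arterial-like. Hmcn1, which encodes the matrix protein hemicentin 1, was at 967 and 1076 CPM in members and 239 and 302 CPM in arterial-like barcodes. Slc16a1, the monocarboxylate transporter MCT1, was at 387 and 363.5 CPM against 111.5 and 93.5. Tfrc, the transferrin receptor that takes up iron, was at 506.5 and 573 CPM against 173 and 173. The venous-like barcodes were not set apart by these genes: their Car4 level was 971 and 961.5 CPM, Hmcn1 932 and 866 CPM, Slc16a1 482 and 371 CPM, and Tfrc 584 and 577 CPM. The label markers therefore describe these members as non-arterial endothelium, and the separation from venous-like barcodes rests on the 5 venous genes of the rule.

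**Figure D1:**
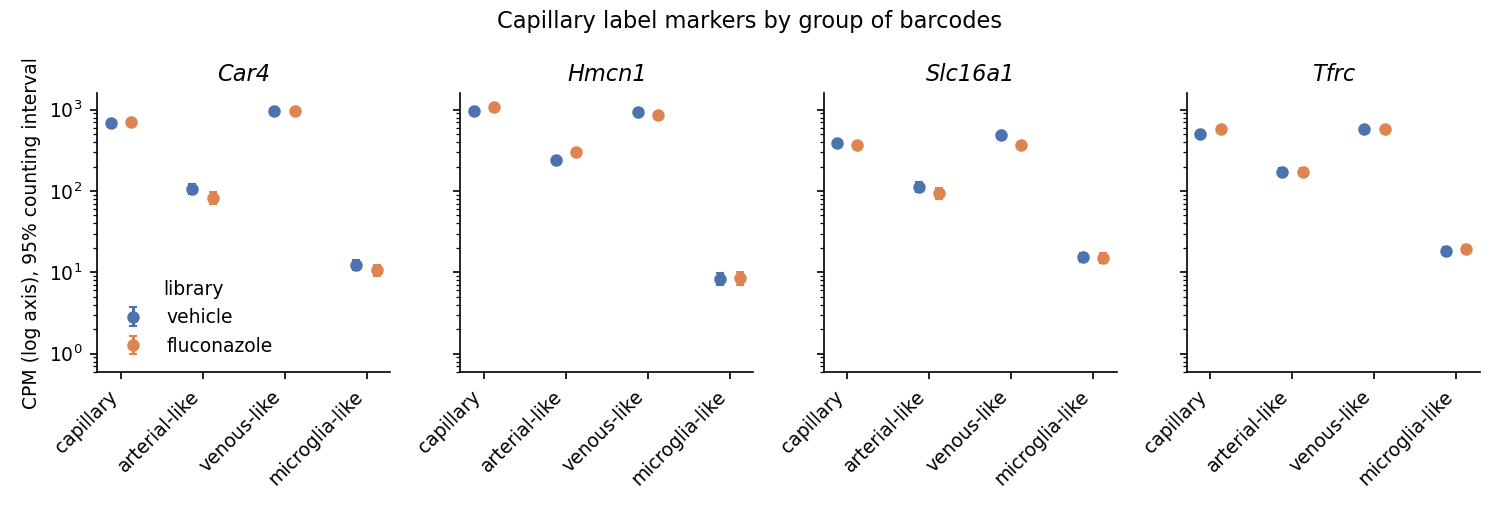
CPM on a log axis of Car4, Hmcn1, Slc16a1 and Tfrc in capillary, arterial-like, venous-like and microglia-like barcodes of the vehicle (blue) and fluconazole (orange) libraries, with 95% counting intervals. Capillary and venous-like levels sit together, Car4 in arterial-like barcodes is at 105 and 82.1 CPM, and microglia-like levels are at most 19.3 CPM.

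The gates did not admit endothelial cells alone. Members with all 7 pan-endothelial genes had a summed level of the 4 label markers of 3168 CPM in each library, whereas members with exactly 4 of them had 246 CPM (vehicle) and 326 CPM (fluconazole). The latter were 141 vehicle barcodes (8.13% of members, 15.1% of their UMIs) and 99 fluconazole barcodes (6.55% and 11.3%). They were deep, with medians of 4196 and 4690 UMIs, and held summed glutamatergic neuron markers at 6568 and 4941 CPM, against 534 and 333 CPM in members with all 7 genes. Barcodes just outside the gate, with 3 pan-endothelial genes, numbered 342 and 263 and had Car4 at 28.1 and 40.4 CPM, beside 74.3 CPM just inside it in the vehicle library. Members with 1 UMI of the other-cell genes likewise had less Car4 than members with 0, 442 against 761 CPM in the vehicle library.

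Counts over the gene lists, and the ratios of many named genes, are therefore also given for a stricter set, chosen after these values were seen: members with at least 5 pan-endothelial genes and no other-cell UMI, which left 1346 vehicle and 1187 fluconazole barcodes. The contrasts along the artery-to-vein axis are given for all members only. The plot of members by the number of pan-endothelial genes shows that the step lies between 4 and 6 genes in both libraries.

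**Figure D2:**
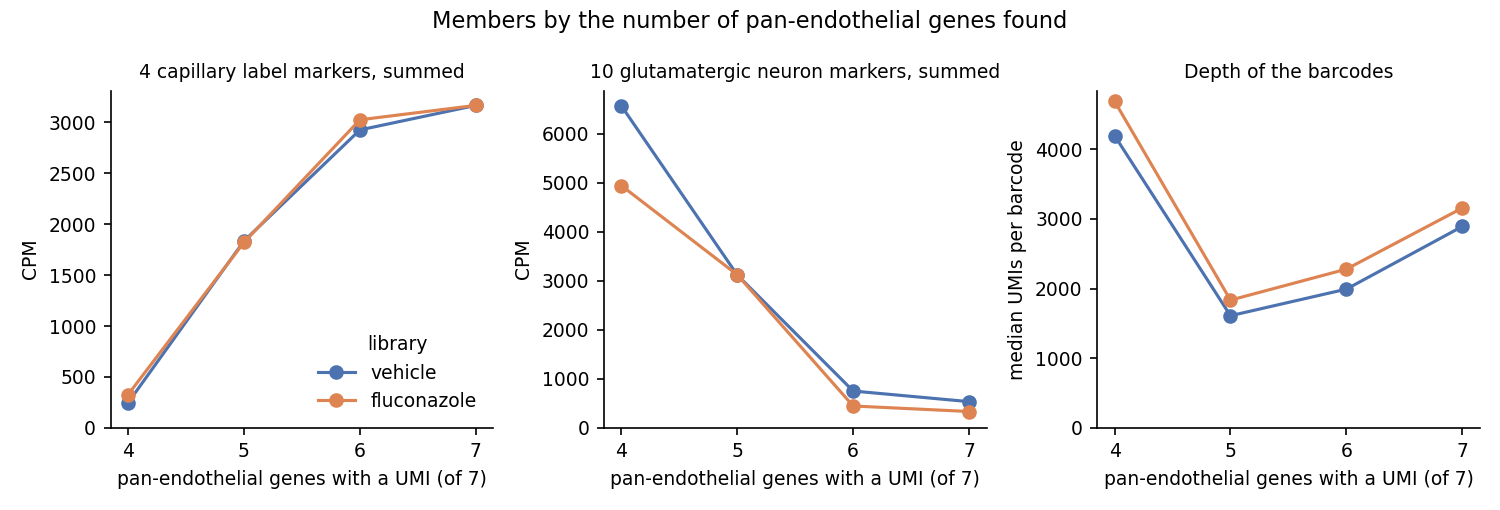
Summed CPM of the 4 label markers, summed CPM of 10 glutamatergic neuron markers, and median UMIs per barcode, against the number of pan-endothelial genes with a UMI, in vehicle (blue) and fluconazole (orange) members. Label markers go from 246 and 326 CPM at 4 genes to 3168 CPM at 7, while the neuron markers go from 6568 and 4941 CPM to 534 and 333 CPM.

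Transcripts of other cell types differed between the 2 sets of members, and these values stand beside every treatment ratio below. The 10 glutamatergic markers summed to 1757 CPM with vehicle and 1083 CPM with fluconazole, and all 9 with at least 20 UMIs were lower with fluconazole. The 9 astrocyte markers summed to 695 and 1067 CPM, and all 8 measured ones were higher. The 9 fibroblast markers summed to 269 and 84.1 CPM, with 29.0% of the vehicle UMIs in 1 barcode. Pericyte markers summed to 464 and 608 CPM, smooth muscle markers to 304 and 253 CPM, microglial markers to 556 and 574.5 CPM, oligodendrocyte markers to 510 and 502 CPM, choroid plexus markers to 88.4 and 81.0 CPM, and blood leukocyte markers to 64.1 and 19.3 CPM. Red blood cell genes summed to 8084 and 6630 CPM, and 10 barcodes held 67.5% and 87.8% of those UMIs. Under the stricter gate, glutamatergic markers summed to 661 CPM with vehicle and 405 CPM with fluconazole, and astrocyte markers to 576 and 853 CPM. Fibroblast markers were at 207 and 85.9 CPM there, red blood cell genes at 10363 and 5744 CPM, and microglial markers at 471 and 458 CPM. Ratios under the stricter gate are therefore not free of other-cell transcripts. The part these transcripts play in any single ratio was not tested.

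Members differed among themselves along the artery-to-vein axis even below the ceiling of the rule. In the vehicle library, 16 arterial genes that the rule did not use (Mgp, Gja4, Efnb2, Vegfc and others) summed to 1014 CPM in barcodes with no arterial UMI and to 1635 CPM in barcodes with 1. Just outside the ceiling they reached 2494 CPM at 2 arterial UMIs, and 4544 CPM at 4 or more. Car4 ran the other way over the same steps, 759, 279, 182, 114 and 72.9 CPM at 0, 1, 2, 3 and 4 or more arterial UMIs. The levels therefore changed across the arterial threshold with no gap at it.

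Along the venous side, 13 venous genes outside the rule (Vcam1, Icam1, Ackr1 and others) summed to 1163 CPM at 0 venous UMIs, 1494 CPM at 1, 1790 CPM at 2 and 3863 CPM at 4 or more. The fluconazole library gave 1334, 1755, 1852 and 4393 CPM at the same steps. Car4 was higher in vehicle barcodes with venous UMIs, at 575, 907, 963, 1163 and 940 CPM for 0, 1, 2, 3 and 4 or more. Barcodes with more venous UMIs were also deeper, with vehicle medians of 2385 UMIs at 0 and 5420 at 4 or more, so depth and position on this axis move together here.

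Against arterial-like barcodes, members were low in the matrix and signalling genes of arteries. Mgp, which encodes matrix Gla protein, was at 43.6 and 49.1 CPM in members against 652 and 820 CPM in arterial-like barcodes, a log2 ratio of −3.90 with vehicle and −4.06 with fluconazole. Eln, which encodes elastin, gave −3.91 and −3.77. Vegfc, a lymphatic and vascular growth factor, gave −3.58 and −4.30, and Gja4, the arterial gap junction gene for connexin 37, gave −2.95 and −3.03. Higher in members by the same ranking were Cd74 (2.92 and 3.48), Car4 (2.69 and 3.11), Car14 (2.64 and 2.85), Lepr, the leptin receptor gene (2.46 and 2.59), and Trhde, which encodes an ectoenzyme that degrades thyrotropin-releasing hormone (2.26 and 2.96). For Cd74, an antigen presentation gene of immune cells, 1 barcode held 81.7% of the fluconazole and 24.9% of the vehicle UMIs of members. Because the rule split the barcodes, these ratios are a description.

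Against venous-like barcodes, members were low in Col6a6 (−5.70 and −6.64), Ptgs2, the inducible cyclooxygenase gene (−5.44 and −5.67), Vcam1 (−4.85 and −4.60) and Icam1 (−3.25 and −2.98), adhesion molecules for leukocytes, and Ackr1, the chemokine-binding receptor of venules (−4.17 and −3.83). The 10 genes ranked highest in members against venous-like barcodes were led by Plcxd3, Cntnap5a and Vstm2a and included Epha5, Sema3a and Il1rapl2. Several of these are neuronal genes: Cntnap5a was at 135 and 85.5 CPM in members and at 21.6 and 12.99 CPM in venous-like barcodes, and Epha5 at 170 and 101 against 33.1 and 16.5 CPM. Plcxd3 led by the smaller of its 2 ratios (2.76 with vehicle and 3.12 with fluconazole), while Vstm2a had the highest with vehicle (3.06) and Il1rapl2 the highest with fluconazole (3.73).

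The most uneven genes among members, by variance over mean after thinning to 1500 UMIs, were the 4 haemoglobin genes Hbb-bs (322 and 333), Hba-a1 (156 and 163), Hba-a2 (129 and 121) and Hbb-bt (68.8 and 76.8). After them came Dpp10, Kcnip4, Lsamp, Nrxn3, Ptprd, Adarb2 and Rbfox1, genes best known from neurons, then Gpc5 and Vtn, which are on the astrocyte and pericyte lists. Kcnip4 gave 16.9 and 13.7. The median over the genes tested was 1.05 and 1.06, close to the value of 1 that counting alone gives. All 15 most uneven genes were thus blood, neural or mural genes, and none was an endothelial marker.

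Between the libraries, 658 of 14795 genes with at least 20 UMIs were at least 1.5-fold higher with fluconazole (4.45%) and 1437 were at least 1.5-fold lower (9.71%), with a median log2 ratio over all genes of −0.02. Counting differences of any size, 47.0% of the 14795 genes were higher with fluconazole, and 46.7% of 13080 under the stricter gate. Of the 8020 genes with at least 200 UMIs, 99 were higher (1.23%) and 306 lower (3.82%). These shares are the background for the counts below. Genes named next were ranked by the bound of the interval nearest to 0 among genes with at least 200 UMIs and no more than 20% of a library's UMIs in 1 barcode.

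The 14 genes reported here among the 15 ranked highest with fluconazole included several known targets of glucocorticoids. Ccn2, a matricellular protein gene also known as connective tissue growth factor, had 141 UMIs with vehicle and 466 with fluconazole, or 25.2 and 90.1 CPM, a log2 ratio of 1.84 (1.57 to 2.12). Zbtb16, which encodes a zinc finger transcription repressor and is a strongly glucocorticoid-induced gene in many tissues, had 320 and 896 UMIs, or 57.1 and 173 CPM, a log2 ratio of 1.60 (1.41 to 1.79). Angptl4, a secreted inhibitor of lipoprotein lipase, had 52 and 148 UMIs, or 9.29 and 28.6 CPM, a log2 ratio of 1.62 (1.16 to 2.11). Under the stricter gate these ratios were 1.79, 2.09 and 1.67. The sum of UMIs was spread over many barcodes: 1 barcode held at most 5.67% of the Ccn2 and 3.44% of the Zbtb16 UMIs of a library.

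After thinning, the share of members with a Zbtb16 UMI was 5.96% (4.78 to 7.34) with vehicle and 20.1% (18.01 to 22.4) with fluconazole, against 2.11% and 3.20% of microglia-like barcodes. Ccn2 had a UMI in 3.38% (2.49 to 4.46) and 10.6% (8.99 to 12.4) of members, against 0.381% and 0.0955% of microglia-like barcodes. Without thinning the members' shares were 11.6% and 35.3% for Zbtb16 and 6.22% and 17.6% for Ccn2. The capillary shares were higher with fluconazole beyond counting error on both scales.

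Further genes of the 14 belong to signalling and metabolism. Pim3, which encodes a serine/threonine kinase, went from 79.6 to 187 CPM (1.23, 1.07 to 1.40), and its thinned share of barcodes from 12.6% to 26.7% beside 4.85% and 4.78% in microglia-like barcodes. Tbc1d4, the Rab GTPase-activating protein AS160 downstream of insulin, was at 277 and 515.5 CPM (0.90, 0.81 to 0.99). Pik3ip1, which encodes an inhibitor of PI3 kinase, was at 72.1 and 143 CPM (0.99, 0.81 to 1.17). These 3 genes kept ratios of 1.18, 0.86 and 0.95 under the stricter gate.

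Among the rest, Galnt15, a glycosyltransferase gene, was at 26.4 and 75.8 CPM (1.52) and Fmo2, a flavin monooxygenase gene, at 21.1 and 50.7 CPM (1.27). Eps8, an actin regulator, gave 1.12 and Tecrl, a reductase-like gene, also 1.12. Sult1a1, a sulfotransferase of phenols and hormones, was at 20.2 and 42.7 CPM (1.08). Xdh, the gene of xanthine dehydrogenase, was at 103 and 188 CPM (0.87). Kif23 (1.17) and Cdc14a (0.97), both known from cell division, complete the 14. All 14 were also higher under the stricter gate, with log2 ratios from 0.74 for Xdh to 2.09 for Zbtb16.

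The same 14 genes were set beside the other endothelial barcodes of the same 2 libraries, which share treatment and library with the members. In arterial-like barcodes the ratios were 0.92 for Ccn2, 1.67 for Zbtb16, 1.96 for Galnt15 and 1.03 for Pim3. Angptl4 gave 2.64 there on 11 and 69 UMIs (1.71 to 3.71) and Fmo2 3.16 on 3 and 27 UMIs (1.46 to 5.52), so their sizes are poorly fixed. In venous-like barcodes they were 1.16 for Ccn2, 1.74 for Zbtb16, 1.38 for Angptl4, 1.00 for Fmo2, 0.86 for Galnt15 and 0.87 for Pim3. The lowest were 0.37 (arterial-like, Pik3ip1) and 0.60 (venous-like, Cdc14a), so all 14 were higher with fluconazole in all 3 groups of endothelial barcodes. In microglia-like barcodes Zbtb16 (0.45), Sult1a1 (0.41) and Pik3ip1 (0.36) were higher beyond counting error. Ccn2 (−1.63, −2.53 to −0.80, on 54 and 16 UMIs) and Eps8 (−0.34, −0.51 to −0.18) were lower there, and the intervals of the other 9 genes held 0.

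**Figure D3:**
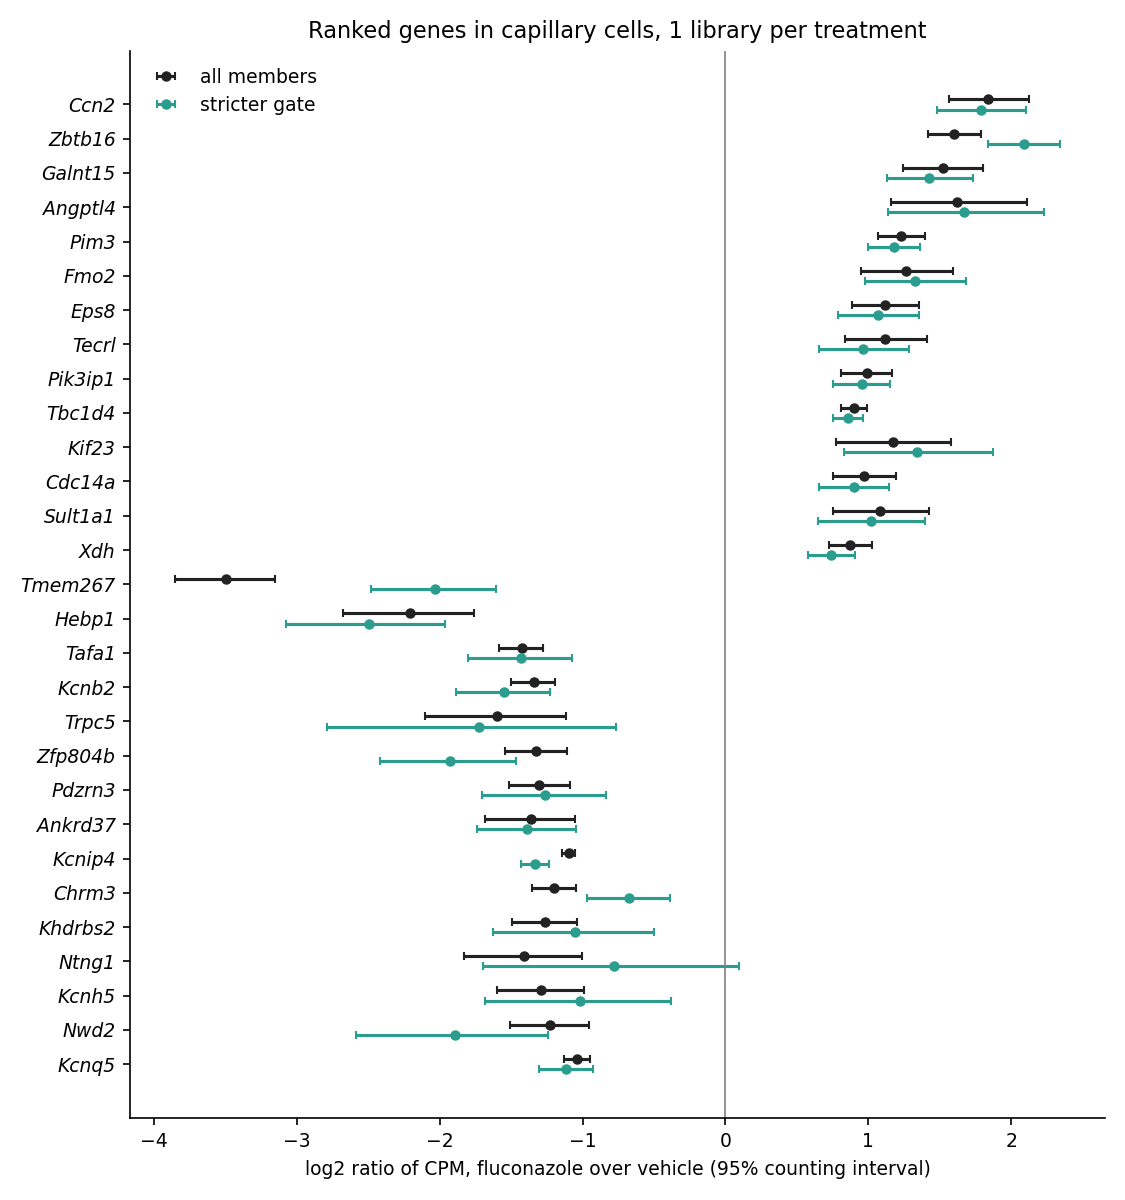
Log2 ratio of CPM, fluconazole over vehicle, of 14 of the 15 genes ranked highest and of the 15 ranked lowest in capillary members, with 95% counting intervals, for all members (black) and for the stricter gate (green). The higher genes lie between 0.74 and 2.09 in both sets, Tmem267 goes from −3.49 to −2.03, and the stricter interval of Ntng1 crosses 0.

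Of the 15 genes ranked lowest with fluconazole, 12 are known from neurons and 3 are not. Tmem267, a transmembrane protein gene, had 903 UMIs with vehicle and 74 with fluconazole, or 161 and 14.3 CPM, a log2 ratio of −3.49 (−3.86 to −3.15) that was −2.03 (−2.48 to −1.60) under the stricter gate. Hebp1, the gene of heme-binding protein 1, had 245 and 49 UMIs, or 43.8 and 9.48 CPM, a log2 ratio of −2.21 (−2.68 to −1.76) and −2.50 under the stricter gate. Both were lower outside capillaries as well. Tmem267 gave −2.37 in arterial-like, −2.00 in venous-like and −2.75 in microglia-like barcodes, and Hebp1 gave −2.22, −1.94 and −1.07. Ankrd37, a gene induced by hypoxia, was at 57.7 and 22.4 CPM in members (−1.36, −1.68 to −1.05; −1.39 under the stricter gate), and gave −1.24, −1.41 and −0.23 in the same order.

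The neuronal genes of the 15 were Tafa1 (−1.43), Kcnb2 (−1.34), Trpc5 (−1.60), Zfp804b (−1.32), Pdzrn3 (−1.30), Kcnip4 (−1.10), Chrm3 (−1.20), Khdrbs2 (−1.26), Ntng1 (−1.41), Kcnh5 (−1.29), Nwd2 (−1.23) and Kcnq5 (−1.04). Kcnip4, a potassium channel-interacting protein gene, was at 2320 and 1086 CPM in members and at 1695 and 1448 CPM in microglia-like barcodes, a cell type that should lack it. In members these genes were lower with fluconazole, as was the glutamatergic marker sum given above, and its part in their ratios was not tested. Among members under the stricter gate the interval of Ntng1 was −1.70 to 0.10 and the other 11 stayed below 0. In arterial-like barcodes the intervals of Trpc5 (1.06) and Kcnh5 (−0.10) held 0 and the rest lay below 0. In venous-like barcodes Kcnh5 was higher (1.00, 0.25 to 1.79). There the intervals of Kcnb2, Trpc5, Pdzrn3, Chrm3, Khdrbs2 and Kcnq5 held 0 and the rest lay below 0.

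The list of 36 genes induced by glucocorticoids in endothelium and other tissues, which also holds the receptor gene Nr3c1, had the highest median. Of its 34 measured genes, 27 were higher and 7 lower with fluconazole (47.0% higher over all genes), 20 had an interval above 0, 13 were at least 1.5-fold higher (background 4.45%) and 1 at least 1.5-fold lower (background 9.71%). The list's median log2 ratio was 0.40, beside −0.02 over all genes. Under the stricter gate 26 of 32 were higher, 12 of them by at least 1.5-fold (background 4.46%), with a median of 0.41. This list was compiled with earlier results of these data known, so its count is not independent evidence of a direction.

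Beside Ccn2, Zbtb16, Angptl4 and Sult1a1, the members of this list include classical receptor targets. Tsc22d3, which encodes the anti-inflammatory leucine zipper protein GILZ, was at 166 and 296 CPM (0.84, 0.72 to 0.96; 0.81 under the stricter gate). Fam107a, an actin-bundling stress gene, was at 20.4 and 39.7 CPM (0.96, 0.62 to 1.31), and Cebpd, a transcription factor gene, at 80.5 and 134 CPM (0.73, 0.56 to 0.91). Klf9, a transcription factor gene induced by steroid and thyroid hormones, was at 239 and 346 CPM (0.53, 0.43 to 0.63), and Nfkbia, the inhibitor of NF-kappa-B, at 509 and 711 CPM (0.48, 0.41 to 0.55). These genes were all higher beyond counting error.

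Other members of the list were not higher. Sgk1, a serum- and glucocorticoid-regulated kinase gene, was at 202 and 195 CPM (−0.05, −0.18 to 0.07), and Fkbp5, a co-chaperone of the receptor, at 13.9 and 14.7 CPM (0.08, −0.40 to 0.55) on 78 and 76 UMIs. Nr3c1, the receptor gene itself, was at 286 and 287 CPM (0.01), and Dusp1, a phosphatase gene, gave −0.04. Gadd45g was lower, at 73.8 and 46.6 CPM (−0.66, −0.90 to −0.43). The list thus held genes higher beyond counting error, genes whose intervals held 0, and Gadd45g, whose interval lay below 0.

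In arterial-like barcodes 19 of 30 measured genes of this list were higher (46.3% over all genes there) with a median of 0.28, and 7 were at least 1.5-fold higher (background 5.41%). In venous-like barcodes 26 of 33 were higher (49.4% over all genes there) with a median of 0.32, and 11 were at least 1.5-fold higher (background 5.19%). Fam107a gave 1.00 and 1.07 and Tsc22d3 0.65 and 0.50 in arterial-like and venous-like barcodes. The 3 groups come from the same 2 libraries and are not separate replicates.

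**Figure D4:**
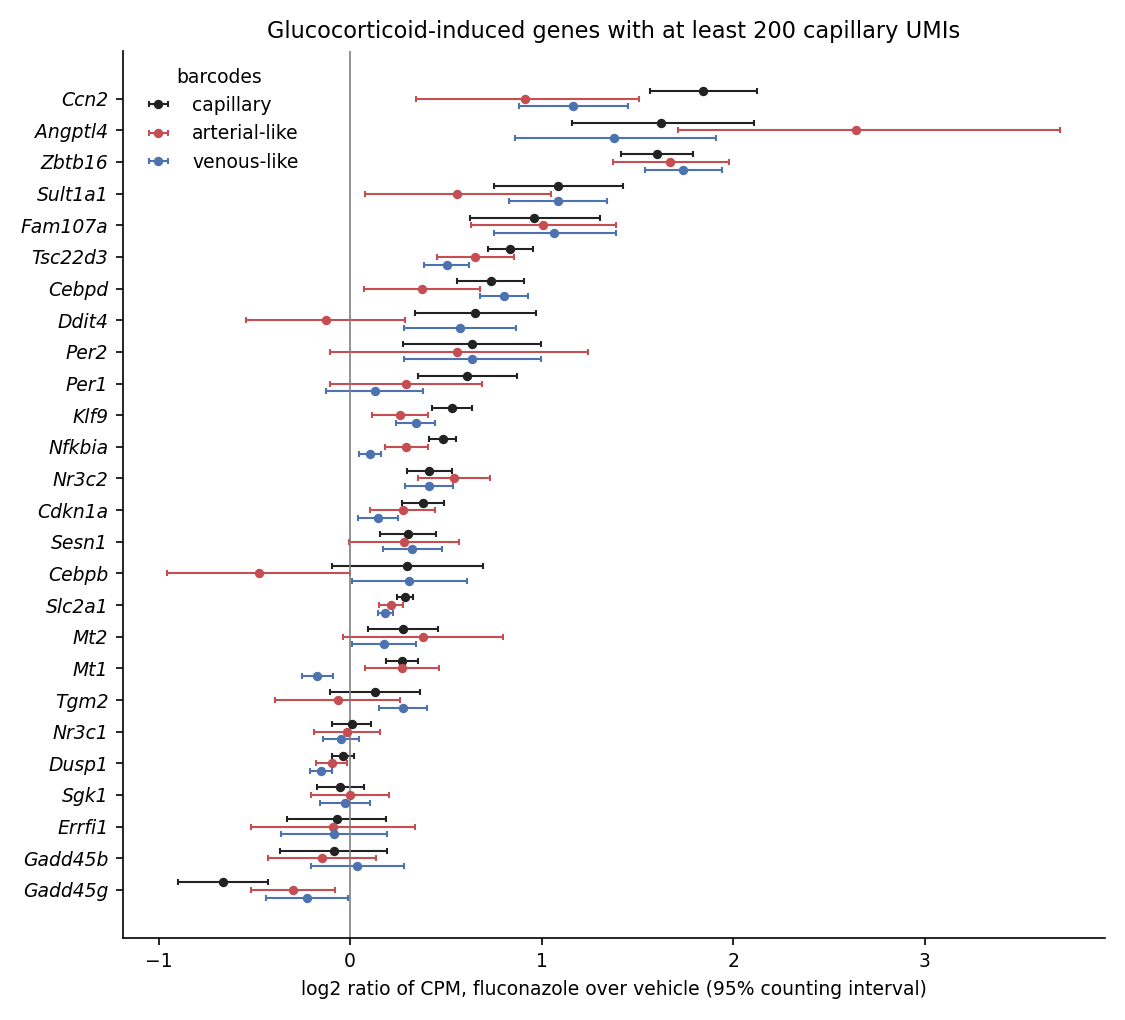
Log2 ratio of CPM, fluconazole over vehicle, with 95% counting intervals, of the glucocorticoid-induced genes with at least 200 UMIs in members, in capillary (black), arterial-like (red) and venous-like (blue) barcodes. Ccn2, Angptl4 and Zbtb16 lie highest in capillary members at 1.84, 1.62 and 1.60, Sgk1 and Nr3c1 lie at −0.05 and 0.01, and Gadd45g lies lowest at −0.66.

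Promoters were searched for the core of the glucocorticoid receptor's binding site, because 20 of the 34 measured genes of this list had an interval above 0. The half-sites GNACA and TGTNC separated by 3 bases, a motif that reads the same on both strands, were found in 145 of 27025 RefSeq mouse genes (0.537%; 250 bases before to 50 after a gene start, build GRCm38.p6, which corresponds to mm10). They were found in 4 of 27 genes of the list with a promoter in the table (14.8%) and in 0 of 9 of the 15 ranked higher genes with one. The list was built mainly from genes known to be induced by glucocorticoids, so its share cannot bear on what differed between these libraries. The 250 bases before the start of those 4 genes are shown 5′ to 3′ on the gene's strand, with the motif in capitals. Map3k6 is on the plus strand at chr4:133240568-133240817, Mt1 on the plus strand at chr8:94178839-94179088, Sgk1 on the plus strand at chr10:21993640-21993889 and Fam107a on the minus strand at chr14:8309780-8310029.
Map3k6: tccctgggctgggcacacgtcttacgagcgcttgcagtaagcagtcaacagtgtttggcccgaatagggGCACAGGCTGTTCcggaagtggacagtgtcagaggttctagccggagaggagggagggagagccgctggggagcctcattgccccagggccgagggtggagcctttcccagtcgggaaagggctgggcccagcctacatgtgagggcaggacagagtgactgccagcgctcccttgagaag
Mt1: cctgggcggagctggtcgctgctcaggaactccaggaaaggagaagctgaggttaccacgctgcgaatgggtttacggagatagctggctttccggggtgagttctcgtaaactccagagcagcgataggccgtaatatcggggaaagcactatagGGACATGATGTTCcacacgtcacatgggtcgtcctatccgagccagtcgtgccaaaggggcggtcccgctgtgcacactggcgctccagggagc
Sgk1: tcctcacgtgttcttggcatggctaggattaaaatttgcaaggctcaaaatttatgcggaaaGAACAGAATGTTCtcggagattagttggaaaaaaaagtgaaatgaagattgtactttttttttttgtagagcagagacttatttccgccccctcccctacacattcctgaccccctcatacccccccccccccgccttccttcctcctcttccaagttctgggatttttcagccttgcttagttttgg
Fam107a: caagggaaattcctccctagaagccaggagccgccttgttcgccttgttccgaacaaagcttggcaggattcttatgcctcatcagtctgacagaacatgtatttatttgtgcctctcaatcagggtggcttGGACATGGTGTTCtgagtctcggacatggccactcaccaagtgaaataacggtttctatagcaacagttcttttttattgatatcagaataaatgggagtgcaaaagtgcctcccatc
The motif starts 181, 94, 188 and 118 bases before the gene start in Map3k6, Mt1, Sgk1 and Fam107a. Their ratios were not alike: Map3k6, a stress kinase gene, was at 13.04 and 21.7 CPM (0.73, 0.29 to 1.18), Fam107a at 0.96 as above, Mt1, the gene of the zinc-binding metallothionein 1, at 389 and 468 CPM (0.27, 0.18 to 0.35), and Sgk1 at −0.05. A match describes letters in this window and is not a bound site.

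Among the transport genes of the barrier, 3 efflux pumps were higher with fluconazole in all 3 endothelial groups, while the carrier lists were divided. Of 15 measured organic anion and drug efflux genes, 10 were higher and 5 lower (median 0.10; 8 of 14 higher under the stricter gate). Abcc4, the efflux pump MRP4, was at 301 and 486 CPM (0.69, 0.60 to 0.78), Abcg2, the pump BCRP, at 757 and 1021 CPM (0.43, 0.37 to 0.49), and Abcb1a, P-glycoprotein, at 1006 and 1259 CPM (0.32, 0.27 to 0.37). Under the stricter gate the ratios were 0.62, 0.38 and 0.27. In venous-like barcodes they were 0.48, 0.32 and 0.27, and in arterial-like barcodes 0.77, 0.34 and 0.31, so the 3 groups did not differ in direction.

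Nutrient carriers did not share a direction. Slc7a5 and Slc3a2, the light and heavy chains of the large neutral amino acid carrier LAT1, were at 697 and 998 CPM (0.52, 0.46 to 0.58) and 431 and 588 CPM (0.45, 0.37 to 0.53). Slc2a1, the glucose carrier GLUT1, was at 1520 and 1855 CPM (0.29, 0.25 to 0.33). Slc6a6, the taurine carrier, was at 1451 and 1330 CPM (−0.13, −0.17 to −0.08), and Slc7a1, a cationic amino acid carrier, gave −0.11 (−0.19 to −0.02). Of 17 measured amino acid carriers 9 were higher and 8 lower (median 0.02), and of 8 glucose and monocarboxylate genes 3 were higher and 5 lower (median −0.08). Under the stricter gate 9 of 16 and 2 of 8 were higher.

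For lipids, 13 of 21 measured genes were higher and 8 lower (median 0.08; 10 of 18 higher under the stricter gate). Pltp, the phospholipid transfer protein gene, was at 1986 and 2446 CPM (0.30, 0.26 to 0.34). Mfsd2a, the carrier of docosahexaenoic acid that also restrains transcytosis, was at 228 and 207 CPM (−0.14, −0.26 to −0.02; −0.28 under the stricter gate), and Fabp5, a fatty acid-binding protein gene, at 43.9 and 25.7 CPM (−0.77, −1.09 to −0.46). For iron, 8 of 14 were higher and 6 lower (median 0.02), but 5 of 13 were higher under the stricter gate. Cp, the gene of the ferroxidase ceruloplasmin, was at 112 and 151 CPM (0.43, 0.28 to 0.58), and Tfrc gave 0.18 (0.10 to 0.25), or 0.10 under the stricter gate. Hmox1, the heme-degrading oxygenase gene, had 49 and 24 UMIs (−0.91, −1.68 to −0.18), and its ratio was 0.085 among members with all 3 gate sums at 0.

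Junction genes were divided evenly, with 15 of 27 higher and 12 lower (median 0.00; 13 of 27 higher under the stricter gate). Tjp1, which encodes the scaffold ZO-1, was at 996 and 1269 CPM (0.35, 0.30 to 0.40), Jam2 gave 0.35 (0.24 to 0.46) and Ocln, the gene of occludin, 0.27 (0.16 to 0.38). Cldn5, the main claudin of the barrier and a gene of the rule, was at 4363 and 3528 CPM (−0.31, −0.33 to −0.28; −0.37 under the stricter gate). Its ratio was −0.25 in arterial-like and −0.36 in venous-like barcodes, so Cldn5 was lower in all 3 groups. All 3 groups passed the same pan-endothelial gate, which uses Cldn5, in the same 2 libraries, so this is a description. In the caveolar and transcytosis list 12 of 18 were higher and 6 lower (median 0.08; 9 of 17 higher under the stricter gate), among them Cavin2, a caveola coat gene, at 0.40 (0.31 to 0.50).

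Growth factor and insulin signalling genes moved singly. Igf1r, which encodes the IGF-1 receptor, was at 1849 and 2657 CPM (0.52, 0.49 to 0.56; 0.45 under the stricter gate) and gave 0.67 in arterial-like, 0.33 in venous-like and 0.16 in microglia-like barcodes. Insr, the insulin receptor gene, was at 262 and 371 CPM (0.50, 0.40 to 0.60), and Txnip, an inhibitor of glucose uptake, at 111 and 198 CPM (0.83, 0.69 to 0.98). Igfbp3, Igfbp2 and Igfbp5, binding proteins of the factor, gave −1.43, −0.80 and −0.86 on 35, 128 and 61 vehicle UMIs, with 41.4% of those of Igfbp2 in 1 barcode. Over the whole list 21 of 41 genes were higher and 20 lower (median 0.01), and 18 of 40 were higher under the stricter gate.

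In the VEGF, angiopoietin and Notch list 14 of 29 genes were higher and 15 lower (median 0.00; 11 of 29 higher under the stricter gate). Vegfc was at 32.0 and 13.5 CPM (−1.24, −1.66 to −0.83), and Kdr, the main VEGF receptor gene, at 460 and 410 CPM (−0.17, −0.25 to −0.08; −0.26 under the stricter gate). Flt4, the receptor for Vegfc, gave 0.52 (0.28 to 0.75). Of 25 Wnt pathway genes 18 were higher and 7 lower (median 0.04), but 11 of 23 were higher under the stricter gate. Fzd4 and Reck, both needed for Wnt7 or Norrin signals to brain endothelium, gave 0.42 (0.25 to 0.59) and 0.32 (0.13 to 0.50), while the effector Lef1 gave −0.15 (−0.22 to −0.08).

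For BMP and TGF-beta signalling 14 of 24 genes were higher and 10 lower (median 0.03), but 10 of 23 were higher under the stricter gate, among them Tgfbr3, a co-receptor gene, at 0.42 (0.28 to 0.55) and Smad7, the inhibitory SMAD gene, at −0.25 (−0.38 to −0.12). Of 32 endothelial transcription factors 18 were higher and 14 lower (median 0.03), against 14 of 32 higher under the stricter gate. Epas1, which encodes HIF-2-alpha, was at 791 and 934 CPM (0.24, 0.18 to 0.30) and Erg, an ETS factor gene, gave 0.30 (0.16 to 0.44). Bcl6b, a repressor gene, was at 21.97 and 11.2 CPM (−0.97, −1.45 to −0.51), Tbx3 gave −0.39 and Ets1 −0.26 (−0.34 to −0.17). Klf2, which laminar flow induces, was at 2886 and 2616 CPM (−0.14, −0.18 to −0.11). Of 15 measured flow-responsive genes 5 were higher and 10 lower (median −0.03), and 5 of 14 were higher under the stricter gate. The higher ones included Ccn2 (1.84), which is also on the glucocorticoid list, and Txnip, which is also on the insulin signalling list.

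Basement membrane genes split by protein. The collagen IV genes Col4a1 and Col4a2 were at 313 and 226 CPM (−0.47, −0.58 to −0.36) and 238 and 188 CPM (−0.34, −0.46 to −0.22), and were −0.60 and −0.50 under the stricter gate. Lama4, a laminin chain gene, gave −0.37 (−0.54 to −0.20) and Sparc −0.25 (−0.30 to −0.20). Fn1, the gene of fibronectin, was at 465 and 641 CPM (0.46, 0.39 to 0.54), and the growth factor gene Pdgfd at 436 and 583 CPM (0.42, 0.34 to 0.50). Col4a1 was also lower in arterial-like (−0.41) and venous-like barcodes (−0.46). Over the list 14 of 25 were higher and 11 lower (median 0.04), but 10 of 25 were higher under the stricter gate.

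Interferon-response and heat shock genes were mostly lower by count, beside 47.0% of all genes higher. Of 35 measured interferon-response genes 9 were higher and 26 lower, 4 of them by at least 1.5-fold (background 9.71%), with a median of −0.15; under the stricter gate 29 of 35 were lower (median −0.22). The list's summed level did not follow its count: it was 8274 and 8581 CPM (0.053, 0.034 to 0.071), and −0.0014 (−0.022 to 0.020) under the stricter gate. Its 2 genes with an interval above 0 were Ly6c1, a gene of the rule, at 2643 and 3209 CPM (0.28, 0.25 to 0.31), and Ly6a, at 1580 and 1693 CPM (0.10, 0.06 to 0.14; 0.04, −0.009 to 0.086, under the stricter gate), both surface proteins of endothelium. Ifitm3, an antiviral membrane protein gene, was at 1070 and 885 CPM (−0.28, −0.33 to −0.22), and Ifit2 at 29.8 and 12.6 CPM (−1.25, −1.68 to −0.82). Gbp6, a guanylate-binding protein gene, had 44 and 12 UMIs (−1.76, −2.82 to −0.81). In arterial-like barcodes 25 of 35 were lower (median −0.13), beside 46.3% of all genes higher there. In venous-like barcodes 28 of 35 were lower (median −0.12), beside 49.4% of all genes higher there. The share at least 1.5-fold lower was near the background, so the list's values are small shifts of many genes. Cxcl10, a chemokine gene induced by interferon, had 73 UMIs with vehicle and 7 with fluconazole (−3.27, −4.63 to −2.15), but 1 barcode held 79.5% of the vehicle UMIs, and the ratio was −0.91 (−2.46 to 0.50) without called doublets.

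Of 21 measured heat shock and unfolded protein genes 5 were higher and 16 lower, 4 of them by at least 1.5-fold (background 9.71%), with a median of −0.13 and 18 of 21 lower under the stricter gate. Hspa1a and Hspa1b, the inducible HSP70 genes, which are near-identical copies that counting can split between them, were at 148 and 80.3 CPM (−0.88, −1.05 to −0.71) and 58.9 and 29.4 CPM (−1.003, −1.29 to −0.72). Dnaja1, an HSP40 co-chaperone gene, was at 426 and 325 CPM (−0.39, −0.48 to −0.30). Herpud1, a gene of the endoplasmic reticulum stress response, was at 105 and 135 CPM (0.37, 0.20 to 0.53). In venous-like barcodes 16 of 21 genes of the list were lower, beside 49.4% of all genes higher there. In arterial-like barcodes 12 of 19 were lower, beside 46.3% of all genes higher there, so this count lies closer to its background.

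Azole antifungals target the sterol 14-alpha-demethylase of fungi, and Cyp51 encodes the mammalian form of this enzyme. Whether fluconazole inhibited the mouse enzyme was not measured here. Cyp51 had 143 and 117 UMIs, or 25.5 and 22.6 CPM, a log2 ratio of −0.17 whose interval of −0.54 to 0.19 holds 0. Of 22 cholesterol synthesis genes 12 were higher and 10 lower (median 0.01; 12 of 21 higher under the stricter gate). Msmo1, the methylsterol oxidase gene of a later step, was at 30.7 and 50.1 CPM (0.71, 0.42 to 0.99; 0.38 under the stricter gate), and Mvk, the mevalonate kinase gene, at 11.8 and 19.1 CPM (0.70, 0.24 to 1.17; 0.44 under the stricter gate). Both ratios were lower under the stricter gate, and Msmo1 gave 0.21 in arterial-like and 0.28 in venous-like barcodes.

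In the sterol uptake and efflux list 15 of 22 genes were higher and 7 lower (median 0.15; 13 of 22 higher under the stricter gate). Apoe, the apolipoprotein E gene, was at 877 and 1449 CPM (0.72, 0.67 to 0.78; 0.64 under the stricter gate), whereas it gave 0.15 in arterial-like and 0.16 in venous-like barcodes. Astrocytes and pericytes express Apoe strongly, and their marker sums were higher in fluconazole members, as given above; their part in this ratio was not tested. In the raft and sphingolipid list 14 of 31 were higher and 17 lower (median −0.08; 14 of 30 higher under the stricter gate). S1pr1, the endothelial sphingosine-1-phosphate receptor gene, was at 318 and 438 CPM (0.46, 0.37 to 0.55), and Sgms1, a sphingomyelin synthase gene, at 1400 and 1810 CPM (0.37, 0.33 to 0.41).

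Clock genes were mostly higher, with 14 of 18 higher and 4 lower (median 0.19), beside 47.0% higher over all genes, and 11 of 17 higher under the stricter gate. Of the 18, 3 were at least 1.5-fold higher (background 4.45%), and 6 had an interval above 0. Dbp, an output gene of the clock, was at 60.4 and 91.9 CPM (0.61, 0.40 to 0.81), Per1 at 37.9 and 57.8 CPM (0.61, 0.35 to 0.87), and Per2 at 19.8 and 30.8 CPM (0.63, 0.27 to 1.00). Per1 and Per2 are also on the glucocorticoid list. The hour of tissue collection is not stated in the sources used here, so it cannot be told apart from treatment.

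**Figure D5:**
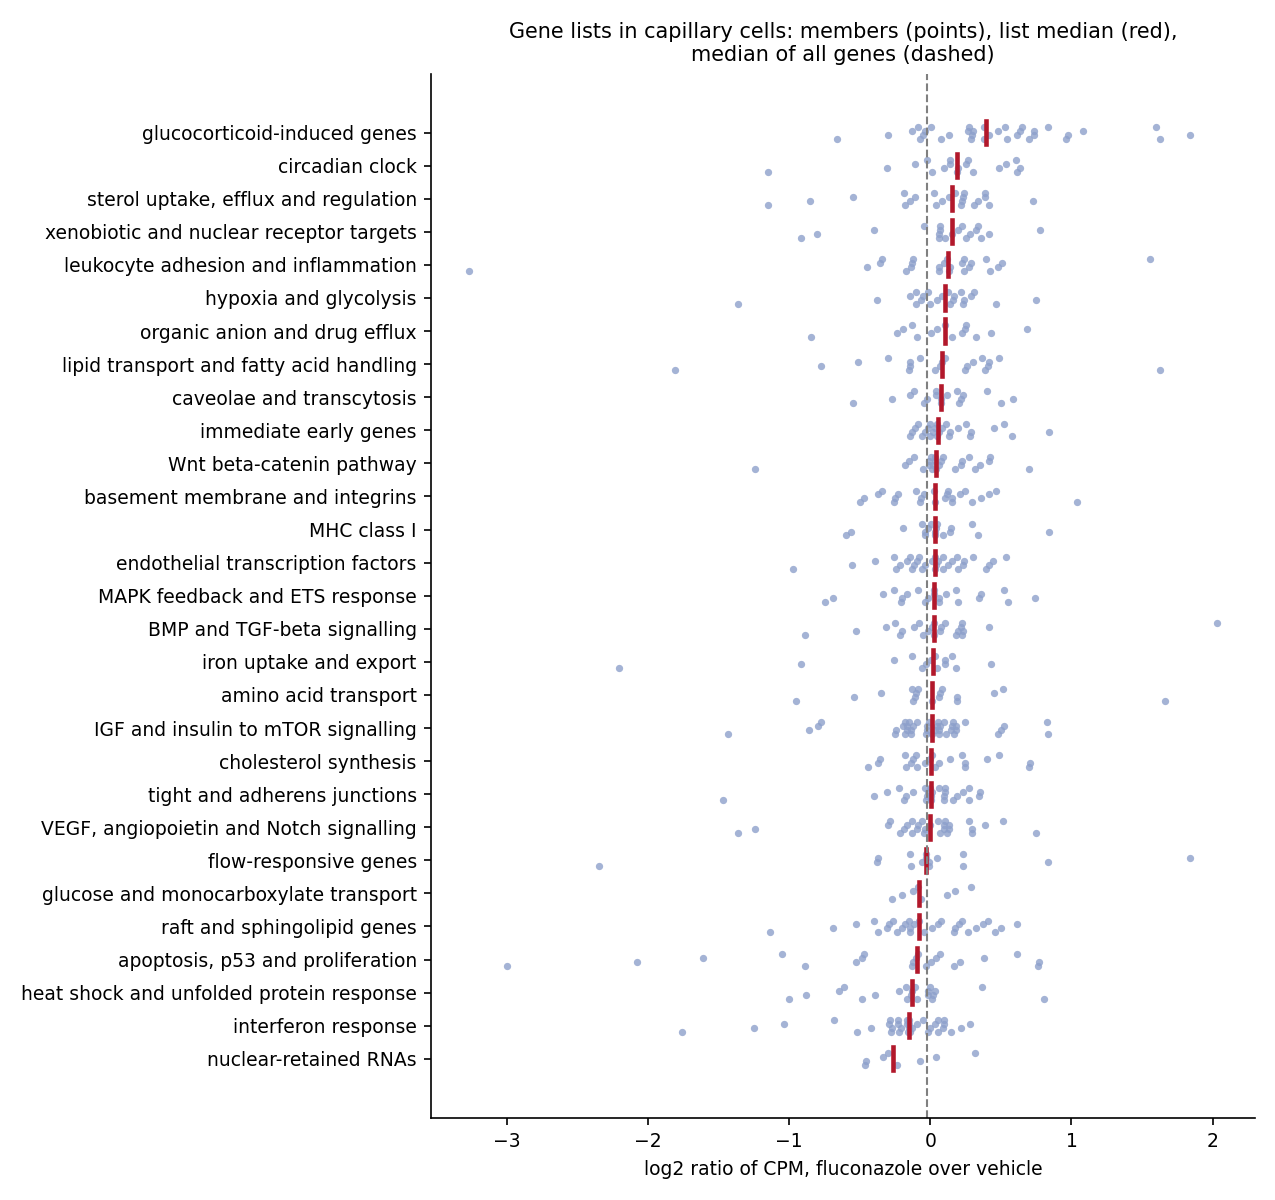
Log2 ratio of CPM, fluconazole over vehicle, of each measured member (points) of 29 gene lists in capillary members, with the list's median (red bar) and the median of all genes (dashed line). The glucocorticoid-induced list has a median of 0.40, the clock list 0.19, the interferon list −0.15, and the line for all genes is at −0.02.

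The remaining lists are given beside the 47.0% of all genes that were higher. Xenobiotic and nuclear receptor targets were higher in 15 of 19 (median 0.15) and in 10 of 17 under the stricter gate (median 0.04), with Por, the reductase gene that serves cytochromes P450, at 0.36 (0.16 to 0.57). Leukocyte adhesion and inflammation genes were higher in 16 of 24 (median 0.12) and in 13 of 22 under the stricter gate (median 0.08), among them Osmr, the oncostatin M receptor gene, at 0.51 (0.33 to 0.70). Hypoxia and glycolysis genes were higher in 13 of 22 (median 0.10; 12 of 21 with a median of 0.003 under the stricter gate). MHC class I genes were higher in 11 of 18 (median 0.03; 8 of 17 under the stricter gate). MAPK feedback and ETS response genes were higher in 12 of 22 (median 0.03; 8 of 20 under the stricter gate), with Spry1, a feedback inhibitor gene, at 24.8 and 41.6 CPM (0.74, 0.43 to 1.06). Immediate early genes were higher in 18 of 26 (median 0.05; 16 of 26 under the stricter gate), with Ier3 at 0.53 (0.42 to 0.63) and Egr1 at −0.11 (−0.17 to −0.04), or 0.017 among members with all 3 gate sums at 0.

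Cell survival and division genes were lower in 13 of 22 (median −0.10) and in 10 of 18 under the stricter gate. Bcl2l1, which encodes the survival protein BCL-XL, was at 153 and 235 CPM (0.62, 0.49 to 0.74), Ccnd3 at 101 and 172 CPM (0.76, 0.61 to 0.92) and Ccnd2 at 94.3 and 45.7 CPM (−1.05, −1.27 to −0.82), the last 2 encoding D-type cyclins. Markers of RNA state also differed between the libraries. Of 8 nuclear-retained RNAs 6 were lower (median −0.27), but their summed level was 27442 and 27744 CPM (0.016, 0.005 to 0.026), since Malat1 (0.04) and Neat1 (0.32) were higher. The lower ones included Snhg14 (−0.46), Rian (−0.45), Meg3 (−0.34) and Snhg11 (−0.23), RNAs abundant in neurons. The 80 ribosomal protein genes were 5.66% and 6.005% of member UMIs, and the 13 mitochondrially encoded genes were 1.92% and 2.30% and all higher. The part of these differences in the ratios above was not tested.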

How the data were processed

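Per the file headers, the deposited matrices are raw UMI counts, whole numbers by gene and droplet barcode, restricted to barcodes the authors had called. The matrix header names Cell Ranger 8.0.1, while the submitters' processing notes list mm10, R 4.0.3, Seurat 4.0.0 and Cell Ranger 9.0.0; alignment settings and the counting of introns are not given in the sources used here. Counts were read as sparse matrices of 33696 genes (Python 3.11.15, numpy 2.4.6, scipy 1.17.1) and summed over the members of a library. CPM is that sum per 1000000 member UMIs, so deep barcodes weigh more. Intervals are 95% Poisson for levels, Clopper-Pearson for shares and conditional binomial for ratios, and cover counting error only. The ratio method was run on simulated Poisson counts, the model it assumes, so that run cannot test for unevenness between barcodes. For genes as uneven among members as Kcnip4 or the haemoglobin genes, that unevenness is not in the intervals, which are too narrow. A count of 0 allows up to 3 UMIs.

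The members, gene lists and markers were chosen with earlier results of these data known, and 8 listed symbols were absent from the table. Doublets called with Scrublet (scanpy 1.11.5) were 46 (2.65%) of vehicle and 28 (1.85%) of fluconazole members and were kept, since the rule names none. Named genes were the 15 ranked highest and 15 ranked lowest, up to 5 per list and direction by the bound furthest from 0, and the label, rule and target genes; gene models, mitochondrial genes and sex-linked markers were left out of the ranking. Of the 15 ranked highest, 14 are reported; the other is not reported here. Other genes of the glucocorticoid list were named after their values were seen. Alternatives were other gates, quality limits, doublets left out, scaling, minimum counts, equal weights and thinning to 1500 UMIs.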

Additional observations from a re-analysis of the deposited data

Results flagged for a closer look

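For 15 comparisons of a named gene, the counting interval of the treatment ratio lay on one side of 0 in capillary members and on the other side in arterial-like or venous-like barcodes. With 1 library per treatment the difference between the groups was not tested. In venous-like barcodes the log2 ratio was 1.00 for Kcnh5 (capillary −1.29), 0.98 for Cd74 (capillary −0.45, but 0.52 with all 3 gate sums at 0), −0.12 for Slc40a1 (0.16), −0.12 for Cavin1 (0.19, but −0.012 after thinning), −0.16 for Erg (0.30), −0.07 for Cxcl12 (0.13), −0.17 for Socs3 (0.24), −0.38 for Plpp3 (0.50), −0.12 for Zfp36 (0.28) and −0.17 for Mt1 (0.27). In arterial-like barcodes it was −0.07 for Fth1 (0.10), 0.74 for Jam3 (−0.40), −3.07 for Bmp2 on 25 and 3 UMIs (2.03 on 9 and 34 UMIs, but −0.63, −0.49 and −0.21 with at least 5 and at least 6 pan-endothelial genes and under the stricter gate), 0.26 for Tgfb2 (−0.11) and −0.37 for Plpp3 (0.50).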

How the results depend on the processing

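Leaving out called doublets, median-of-ratios scaling (a shift of all ratios by −0.004), equal weights per barcode and other minimum counts moved no share, count of genes or list median past a set limit. The limit was the counting interval for a share and 1.5-fold for a count of genes. For a list median it was the median reach, to either side, of the intervals of its genes. With at least 1000 genes and at most 10% mitochondrial UMIs the members were 11.6% of vehicle barcodes and the ratio of shares was 1.14. The capillary shares were 11.8% and 12.7% with at least 5 pan-endothelial genes, 10.3% and 11.5% with at least 6, 10.0% and 10.7% under the stricter gate, and 6.35% and 6.75% with all 3 gate sums at 0. The 306 genes at least 1.5-fold lower became 202, 171 and 192 under the first 3 of these gates and 112 after thinning, and the 99 higher became 64 under the stricter gate and 56 after thinning; the cause was not tested. The median of nuclear-retained RNAs was −0.092, −0.056 and −0.86 with at least 5 genes, at least 6 genes and sums at 0, and that of immediate early genes −0.060 with at least 6 genes and 0.19 with sums at 0; the cause was not tested. Of single genes, Bmp2 reversed to −0.63 (at least 5), −0.49 (at least 6) and −0.21 (stricter gate), where Slc7a8 was 0.050. With at least 6 genes Rbpj was −0.0059 and Etv5 −0.27, and with sums at 0 Hmox1 was 0.085, Cd74 0.52, Egr1 0.017 and Mki67 0.50. After thinning Magi1 was 0.059, Cavin1 −0.012, Rbpj −0.016, Ly6a −0.0011, Stard4 −0.00064 and Mki67 0.065. The gates with at least 6 genes and the stricter gate were added after the data were seen. Over 9 alternatives and 213 named genes, 1529 ratios stayed within their counting interval, 371 moved outside it and 16 reversed. Reversed means a change of sign in a gene whose main interval lay on one side of 0. A change of sign in a gene whose main interval held 0 is not counted as reversed. No paired analysis was possible because each treatment has 1 library, and for the same reason no replicate could be left out. Depth limits genes under about 20 UMIs, which were not counted.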
